A study of Mus musculus with 15 samples.

Results

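The genes followed here, 7 in number, belong to the contractile apparatus and encode alternative forms of the same sarcomere protein: the myosin heavy chains Myh7, Myh6 and Myh7b, the striated actins Acta1 and Actc1, and the troponin I genes Tnni1 and Tnni3. The members were all probe sets that the platform annotation gives to exactly 1 of these symbols. That rule found 8 probe sets for 7 genes among 45101 probe sets in all (18194 genes named by a single-gene probe set), with 2 for Myh6 and 1 for each other gene. The hearts came from 7 male mice heterozygous for Lmna H222P and from 8 male control mice, all at 10 weeks of age, with 1 array per mouse and total RNA of the whole heart. Lmna encodes the nuclear lamins A and C, and H222P is a single amino acid substitution known from human muscular dystrophy with heart disease. The labels used here name no strain, litter or batch, so a difference between the groups cannot be told apart from a difference in these. The p-values below set group differences against the scatter of these particular samples, which may in part be technical.

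The sarcomere is built from thick filaments of myosin and thin filaments of actin, and troponin I holds the thin filament off until calcium binds the troponin complex. In rodents the ventricle before birth uses the slow heavy chain of Myh7, the skeletal actin of Acta1 and the slow skeletal troponin I of Tnni1 alongside the cardiac forms. After birth Myh6, Actc1 and Tnni3 take over, and a return of Myh7 and Acta1 is a well-known feature of the strained adult heart.

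The myosin genes also carry a family of microRNAs inside their transcription units, and these sequences are shown because they tie the 3 heavy chain genes together by more than their protein. RefSeq (GRCm38.p6) places Mir208a within Myh6, Mir208b within Myh7 and Mir499 within Myh7b, each on the strand of its host. The mature forms below are written with the seed, bases 2 to 8, in capitals.
miR-208a-3p, chr14:54949072-54949093, minus strand: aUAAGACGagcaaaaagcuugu
miR-208b-3p, chr14:54975710-54975731, minus strand: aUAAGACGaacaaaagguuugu
miR-499-5p, chr2:155622893-155622913, plus strand: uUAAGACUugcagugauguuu
The forms from Myh6 and Myh7 share the seed UAAGACG, which 2 of 1738 mature mouse microRNAs of the table hold, and they differ at 3 of 22 positions outside it, G10A, A16G and C18U, counted from the 5′ end with the base of miR-208a first. The form from Myh7b differs from miR-208a in 1 seed base, G8U. The values below are those of the host transcripts, since no microRNA probe set was examined.

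The fetal heavy chain gene Myh7 was the member that stood furthest apart, and the adult forms showed no such difference. Geometric mean signals of Myh7 were 1789.1 units in heterozygous hearts and 495.8 units in control hearts, a ratio of 3.61. Acta1 lay the other way, at 4859.3 units in heterozygous and 9601.1 units in control hearts, a ratio of 0.506. The ratios of the adult genes Actc1 and Tnni3 were 0.966 and 0.979, and that of the brighter Myh6 probe set was 1.05. All 8 member probe sets exceeded a log2 signal of 4 on at least 7 of the 15 arrays and were tested, and 0 of the 8 passed limma's test with p-values adjusted by Benjamini and Hochberg's method over 38870 probe sets. Over all tested probe sets that test passed 0.252%, with 0.09% higher and 0.162% lower in heterozygous hearts. The 2 groups overlapped in all 8 member probe sets, where 0.468% of tested probe sets had groups that did not overlap. At an unadjusted p under 0.05 the members had 1 higher, Myh7, and 1 lower, Acta1, which is 25.0% of 8 beside 14.6% of all probe sets. The rank sum test, exact except where values tied as in Tnni1, also passed 0 of 8, with 1 of 8 at an unadjusted p under 0.05. The median log2 difference was 0.02 over the 8 member probe sets and -0.11 over all tested probe sets.

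Of the fetal forms, the slow heavy chain Myh7 gives a motor with slower ATP turnover and more economical force than that of Myh6. Its signals were 8570.3, 6204.5, 1156.9, 1367.3, 1673.6, 559.5 and 745.0 units on heterozygous arrays 1 to 7. Control arrays 1 to 8 gave 426.0, 563.6, 470.2, 520.2, 584.6, 587.6, 412.0 and 439.6 units. Heterozygous arrays 1 and 2 were far above all others, 6 of the 7 heterozygous arrays lay above every control, and heterozygous array 6 fell within the control range. The controls spanned a 1.43-fold range from lowest to highest, while the heterozygous hearts spanned a 15.3-fold range. Mean log2 signals were 10.81 ± 1.49 (SD, n = 7) in heterozygous and 8.95 ± 0.21 (SD, n = 8) in control hearts. The log2 difference of 1.85 had a 95% interval from 0.79 to 2.92 and an adjusted p = 0.138 (limma), with 1.51% of tested probe sets at a smaller p. Without heterozygous arrays 1 and 2 the difference was 1.04 with limma's adjusted p = 0.130.

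Myh6 encodes the fast alpha heavy chain, the main myosin motor of the adult mouse ventricle. Its brighter probe set measured 30751.0, 45577.3, 32902.7, 25579.0, 38026.1, 15214.2 and 37421.2 units on heterozygous arrays 1 to 7. The control arrays gave 27077.6, 31186.5, 23632.7, 33557.2, 60903.5, 30427.2, 19765.5 and 22089.8 units. The groups overlapped almost completely, with control array 5 highest and heterozygous array 6 lowest. The log2 difference was 0.07, with a 95% interval from -0.49 to 0.62 and limma's adjusted p = 0.932. The dimmer probe set of Myh6 spread more widely and did not follow the brighter one over all arrays. Pearson's r between them was 0.09 over the 15 arrays, 0.77 within controls and -0.45 within heterozygous hearts. The dimmer probe set ranged from 438.1 to 3998.9 units with a median of 1217.9 in heterozygous hearts, and from 546.5 to 3026.5 units with a median of 869.7 in control hearts. Its log2 difference was 0.41, with an interval from -0.70 to 1.51 and limma's adjusted p = 0.756. On the 4 arrays whose beta-actin control signal was steepest from the 3′ to the 5′ end (log2 ratio over 1: heterozygous 2, 3 and 5 and control 6) it stayed between 438.1 and 633.0 units. On the other 11 arrays it reached from 546.5 to 3998.9 units. Its genotype difference was 0.87 with the beta-actin ratio as a covariate (limma's adjusted p = 0.325) and 1.22 without those 4 arrays (limma's adjusted p = 0.278).

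**Figure D1:**
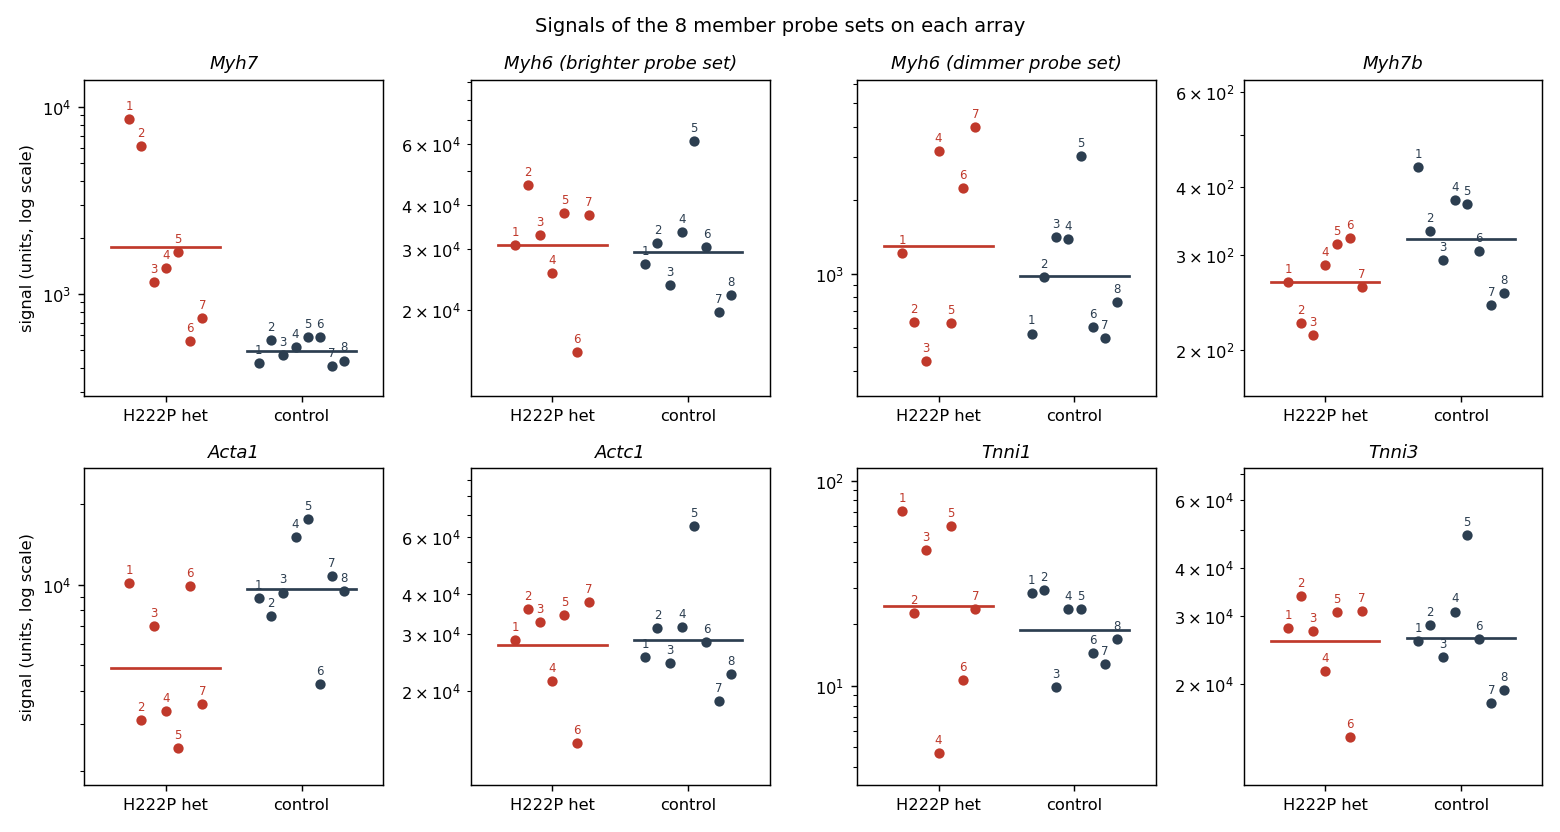
Signal of each member probe set on a log scale, with 1 point per array numbered as in the labels and a line at the geometric mean of each group. Heterozygous arrays 1 and 2 stand out in Myh7 at 8570.3 and 6204.5 units, the controls of Myh7 lie between 412.0 and 587.6 units, and the bright Myh6, Actc1 and Tnni3 probe sets share control array 5 as their highest and heterozygous array 6 as their lowest.

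Myh7 and Myh6 lie next to each other on chromosome 14 on the same strand, with 1 other annotated gene, Mhrt, in between, so their balance was read within each array. A within-array ratio does not depend on a constant scaling factor of each array, though it can change under quantile normalization. Levels of 2 probe sets cannot be set against each other, so only the ratio's difference between groups is read. The log2 ratio of Myh7 over the brighter Myh6 probe set was -1.84, -2.88, -4.83, -4.23, -4.51, -4.77 and -5.65 on heterozygous arrays 1 to 7. In control arrays 1 to 8 it was -5.99, -5.79, -5.65, -6.01, -6.70, -5.69, -5.58 and -5.65. Heterozygous arrays 1 to 6 lay above every control and heterozygous array 7 lay among them. The mean was -4.10 ± 1.30 (SD, n = 7) in heterozygous and -5.88 ± 0.37 (SD, n = 8) in control hearts, a difference of 1.78 that corresponds to a 3.45-fold larger ratio.

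An exact two-sided permutation test over all 6435 splits of the 15 arrays gave p = 0.000311 for this difference, and 0.00124 after Benjamini-Hochberg adjustment over the 4 ratios examined. These ratios were formed with earlier results of these data known, so each was also read against the ratios of every other tested probe set over the same denominator. Over Myh6, 7.94% of 38869 probe sets had an unadjusted exact p under 0.05 and 0 passed after adjustment, with an adjusted exact p = 0.326 for Myh7. An exact p no larger than that of Myh7 was reached by 37 of them (0.0952%), 10 of which (0.0257% of all) were higher in heterozygous hearts. Without heterozygous arrays 1 and 2 the ratio still differed, by 1.09 (exact permutation p = 0.00155). The dimmer Myh6 probe set as denominator gave a difference of 1.44 with an exact permutation p = 0.120, and the mean of both Myh6 probe sets gave 1.61 with an exact p = 0.0216, which is 0.0864 over the 4 ratios. Actc1 and Tnni3 followed the brighter Myh6 probe set at Pearson's r = 0.974 and 0.982 over the 15 arrays. As denominators they are therefore not independent of it. With Actc1 or Tnni3 as denominator the difference was 1.90 or 1.88 (exact permutation p = 0.000466 and 0.000155). Adjusted over all tested probe sets, these exact permutation tests gave adjusted p = 0.572 over Actc1 and 0.232 over Tnni3. Of all probe sets set over Actc1, 6.08% had an unadjusted exact p under 0.05, 0.0798% had a p no larger than that of Myh7 and 0.0412% had such a p and were higher. Over Tnni3 these shares were 7.8%, 0.0669% and 0.0283%. The 0.000155 over Tnni3 is the smallest p that 6435 splits can give, and there 7 of 7 heterozygous arrays lay above every control.

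**Figure D2:**
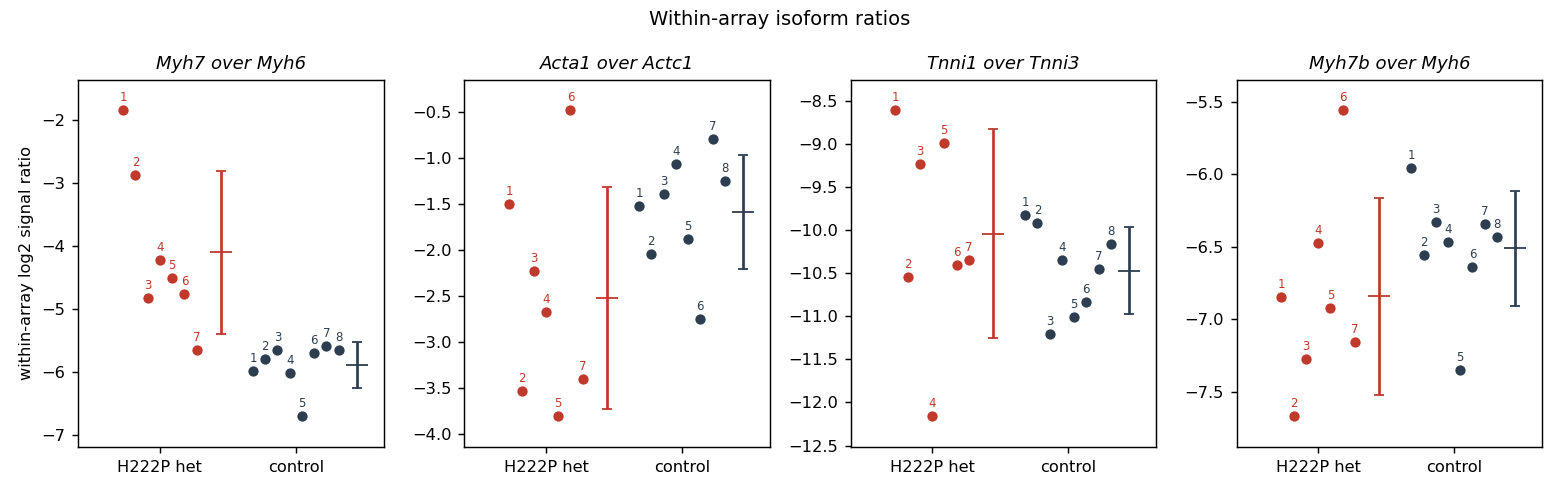
Within-array log2 signal ratios of a fetal, slow or skeletal form over an adult cardiac form, with 1 numbered point per array and the mean with its SD as a bar to the right of each group. For Myh7 over Myh6 heterozygous arrays 1 to 6 lie above all 8 controls, and in the other 3 ratios the groups overlap.

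Acta1, the actin of skeletal muscle and of the fetal heart, is commonly raised together with Myh7 under load, but here it lay lower in heterozygous hearts. Its signals were 10108.0, 3100.6, 6998.1, 3362.6, 2453.7, 9911.2 and 3566.9 units on heterozygous arrays 1 to 7. The control arrays gave 8877.1, 7600.9, 9332.2, 15095.0, 17594.7, 4234.4, 10781.1 and 9457.9 units. Heterozygous arrays 2, 4, 5 and 7 were below every control, heterozygous arrays 1 and 6 were in the middle of the control range, and control array 6 was the lowest control. The mean log2 signal was 12.25 ± 0.85 (SD, n = 7) in heterozygous and 13.23 ± 0.63 (SD, n = 8) in control hearts. The log2 difference of -0.98 had a 95% interval from -1.76 to -0.20 and limma's adjusted p = 0.248. The heterozygous array highest in Myh7, array 1, was also the highest heterozygous array in Acta1, while array 2, the next in Myh7, was among the low ones.

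The cardiac actin gene Actc1 encodes the main thin filament actin of the adult heart. It measured 28660.4, 35756.7, 32652.8, 21431.6, 34325.6, 13823.5 and 37763.1 units on heterozygous arrays 1 to 7. In control arrays 1 to 8 it measured 25456.1, 31310.4, 24448.6, 31442.7, 64591.6, 28442.2, 18622.9 and 22500.5 units. The groups overlapped, and the log2 difference was -0.05 with an interval from -0.63 to 0.53 (limma's adjusted p = 0.951). The sign of so small a difference turned under several settings. The log2 ratio of Acta1 over Actc1 was -2.52 ± 1.21 (SD, n = 7) in heterozygous and -1.58 ± 0.62 (SD, n = 8) in control hearts. The difference of -0.93 did not pass (exact permutation p = 0.0786, adjusted p = 0.157 over the 4 ratios and 0.858 over all tested probe sets), with 3 heterozygous arrays below every control and 1 above. Without heterozygous array 6, the highest of all in this ratio at -0.48, it was -1.27 with an exact permutation p = 0.0107 and 0.0213 over the 4 ratios. No share over all tested probe sets was computed without that array. Leaving out any other single array did not pass, with adjusted exact permutation p from 0.0932 to 0.322 over the 4 ratios.

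The promoters of the myosin and actin pairs are shown because Myh7 and Acta1 lay in opposite directions while their adult partners showed little difference. Each run is the 250 bases before a RefSeq gene start (GRCm38.p6), 5′ to 3′ on the gene's strand. For Myh6 the table's start is not the outermost annotated one, and for Myh7 the table holds another start, whose window (chr14:54994550-54994799) is not shown and held no match of either motif. Capitals mark a CArG box, known as a binding motif of serum response factor, or an MCAT element, CATTCC on either strand, known from TEAD factors.
Myh7, chr14:54994627-54994876, minus strand: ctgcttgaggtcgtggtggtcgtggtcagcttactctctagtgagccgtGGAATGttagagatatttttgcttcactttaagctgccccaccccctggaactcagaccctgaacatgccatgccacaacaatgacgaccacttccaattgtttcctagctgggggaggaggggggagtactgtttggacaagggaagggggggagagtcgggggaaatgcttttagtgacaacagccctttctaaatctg
Myh6, chr14:54966608-54966857, minus strand: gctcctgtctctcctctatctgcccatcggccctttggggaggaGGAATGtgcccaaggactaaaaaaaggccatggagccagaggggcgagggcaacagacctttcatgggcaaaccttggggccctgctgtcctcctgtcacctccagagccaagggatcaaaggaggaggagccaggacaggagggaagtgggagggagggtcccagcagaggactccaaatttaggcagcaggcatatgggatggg
Acta1, chr8:123894776-123895025, minus strand: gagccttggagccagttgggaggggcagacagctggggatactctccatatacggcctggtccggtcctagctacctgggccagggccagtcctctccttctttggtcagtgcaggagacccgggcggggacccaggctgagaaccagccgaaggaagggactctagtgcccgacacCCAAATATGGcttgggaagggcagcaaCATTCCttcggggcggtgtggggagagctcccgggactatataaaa
Actc1, chr2:114052876-114053125, minus strand: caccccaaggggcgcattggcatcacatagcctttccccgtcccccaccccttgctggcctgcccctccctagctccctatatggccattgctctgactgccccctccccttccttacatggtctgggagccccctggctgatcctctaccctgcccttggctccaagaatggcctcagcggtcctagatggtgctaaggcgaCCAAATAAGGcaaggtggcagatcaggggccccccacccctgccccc
Both actin promoters held a CArG box, at -73 to -64 in Acta1 and at -47 to -38 in Actc1, counted back from the gene start. A CArG box was present in 1.47% of the 32851 windows of this kind in the table. The MCAT letters stood at -201 to -196 in Myh7, at -206 to -201 in Myh6 and at -46 to -41 in Acta1, and 12.6% of all windows held them. Acta1 thus held both motifs and each other window shown held 1, and a match in these letters is not a measured binding site. Windows of Myh7b, Tnni1 and Tnni3 held no match of either motif.

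Troponin I is the inhibitory subunit of the thin filament switch, and Tnni1 encodes its slow skeletal form, which the cardiac form of Tnni3 replaces after birth. Tnni1 was a weak signal. It measured 71.4, 22.6, 45.6, 4.7, 60.3, 10.7 and 23.6 units on heterozygous arrays 1 to 7. The control arrays gave 28.4, 29.4, 9.9, 23.6, 23.7, 14.4, 12.7 and 16.8 units. Heterozygous arrays 1, 3 and 5 lay above every control and heterozygous array 4 below every control. Only 1 of the 15 arrays had Tnni1 above that array's own median signal, and signals this low scatter widely. The log2 difference was 0.40 with an interval from -0.69 to 1.49 and limma's adjusted p = 0.759.

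Tnni3 measured 27859.6, 33694.0, 27364.7, 21518.2, 30645.1, 14488.6 and 30811.3 units on heterozygous arrays 1 to 7. The control arrays gave 25800.9, 28367.4, 23407.5, 30777.7, 48692.5, 26176.9, 17821.3 and 19274.5 units. The groups overlapped, with control array 5 highest and heterozygous array 6 lowest as in Myh6 and Actc1. The log2 difference was -0.03 with an interval from -0.52 to 0.46 (limma's adjusted p = 0.966). The log2 ratio of Tnni1 over Tnni3 was -10.04 ± 1.21 (SD, n = 7) in heterozygous and -10.47 ± 0.51 (SD, n = 8) in control hearts. This ratio differed by 0.43 (exact permutation p = 0.379, adjusted exact p = 0.908 over all tested probe sets). After every log2 signal below 6 was raised to 6, that difference was 0.05.

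Myh7b encodes an ancient slow-type heavy chain and is better known in heart as the host of Mir499. It measured 267.3, 224.2, 213.2, 287.6, 314.3, 322.5 and 262.0 units on heterozygous arrays 1 to 7. In control arrays 1 to 8 it measured 435.6, 332.1, 293.8, 379.5, 373.3, 305.6, 243.0 and 255.7 units. The ranges overlapped, with 4 controls above every heterozygous array and 2 heterozygous arrays below every control. The log2 difference was -0.27 with an interval from -0.60 to 0.07 and limma's adjusted p = 0.459. Its log2 ratio over Myh6 was -6.84 ± 0.68 (SD, n = 7) in heterozygous and -6.51 ± 0.40 (SD, n = 8) in control hearts. The ratio differed by -0.33 (exact permutation p = 0.257, adjusted exact p = 0.858 over all tested probe sets). Without heterozygous array 6, the highest of all in this ratio at -5.56, the difference was -0.55 with an exact permutation p = 0.0276 and 0.0369 over the 4 ratios. No share over all tested probe sets was computed without that array. Leaving out any other single array did not pass here either, with adjusted exact permutation p from 0.155 to 0.530 over the 4 ratios.

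The transcripts most like each member over the 15 arrays were named by Pearson correlation of log2 signals, as a description. The brightest members followed other abundant transcripts, among them muscle and mitochondrial ones. Myh6 was most like Tpt1, Tnnt2 and Atp5g3 (r from 0.992 to 0.995), Tnni3 most like the ventricular light chains Myl2 and Myl3 and myoglobin, Mb (0.991 to 0.994), and Actc1 most like Atp5g3, the calcium pump gene Atp2a2 and ND5 (0.984 to 0.988). The brighter Myh6 probe set, Tnni3 and Actc1 all lay above percentile 99.9 of the signals on every array. Myh7 was most like Mgp, which encodes a calcification inhibitor of the matrix (0.938), Lars (0.935) and Npm1 (0.921). Mgp measured 16863.3 and 11103.3 units on heterozygous arrays 1 and 2 and 4981.6 to 9164.3 units on the other 5, against 3655.4 to 5067.2 units in control hearts. Acta1 was most like the guanylate kinase Guk1 (0.925), the red cell enzyme Bpgm (0.877) and Gtf2h4 (0.845). For Myh7b and Tnni1 the highest correlations were 0.831 (Clec2d) and 0.828 (Vcp). None of these genes passed the genotype test, with limma's adjusted p from 0.192 to 0.999.

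A part of the atrial muscle markers differed with the genotype, and their values are set beside Myh7 and Acta1. Cardiac muscle genes were bright in both groups, with Tnnt2 at 15565.5 to 43980.1 units in heterozygous and 20005.4 to 58497.6 units in control hearts. Of 11 atrial markers, 3 rose over all probe sets in heterozygous hearts, the sarcolipin gene Sln and the light chains Myl7 and Myl4. The other 8 did not pass. Among them Nppa, Pam, Dkk3, Stard10 and Nr2f2 had log2 differences of 0.18 to 2.10, and Kcna5, Kcnj3 and Bmp10 had -0.62, -0.10 and -0.81 (limma's adjusted p from 0.133 to 0.876 over the 8). The summed signal of the 11 ran from 12770.9 to 43457.3 units in heterozygous and from 8241.5 to 13015.4 units in control hearts. The atrial mean used below is the mean log2 signal of Sln, Myl7 and Myl4, the 3 markers that passed the genotype test, and not of the whole list. It was 8.73 to 12.38 in heterozygous hearts, and 9.79 in control array 6 beside 4.81 to 6.12 in the other 7 controls. Myh7 on control array 6 was 587.6 units, at the top of a narrow control range. Acta1 on control array 6 was 4234.4 units, below the other 7 controls, which lay between 7600.9 and 17594.7 units.

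Only Acta1 was tested against the atrial mean and the 3′ to 5′ beta-actin ratio. These 4 relations were not planned, and no share over all probe sets was taken. For Myh7 and the atrial mean Pearson's r was 0.456 within controls and -0.311 within heterozygous hearts, given without a test. Within the 8 controls Acta1 and the atrial mean correlated at Pearson's r = -0.862 (exact permutation p = 0.000918, adjusted p = 0.00367 over 4 relations) and Spearman's rho = -0.833 (exact p = 0.0154, adjusted p = 0.0615). Without the 2 controls farthest from the median atrial mean r was -0.771 (n = 6). Within the 7 heterozygous hearts r was -0.450 (exact permutation p = 0.303, adjusted p = 0.303) and rho was -0.607 (exact p = 0.167, adjusted p = 0.167). There r became 0.340 without the 2 farthest arrays (n = 5), so the sign of r depended on those arrays. The 3′ to 5′ beta-actin ratio and Acta1 had r = -0.781 in controls (exact permutation p = 0.0246, adjusted p = 0.0492; rho = -0.571, exact p = 0.151, adjusted p = 0.167). In heterozygous hearts that relation gave r = -0.579 (exact permutation p = 0.167, adjusted p = 0.222) and rho = -0.821 (exact p = 0.0341, adjusted p = 0.0683). Without the 2 farthest arrays these values of r were -0.392 in controls (n = 6) and -0.165 in heterozygous hearts (n = 5), so the size of both depended on those arrays. Leaving out the farthest arrays also narrows the range, which by itself can lower r. The genotype difference of Acta1 was 0.51 with the atrial mean as a covariate (limma's adjusted p = 0.827) and -0.68 with the beta-actin ratio as a covariate (limma's adjusted p = 0.306). The same fits gave 2.25 and 1.66 for Myh7 (limma's adjusted p = 0.549 and 0.163). The atrial mean was built from genes that differ between the groups, so genotype and atrial content cannot be told apart in the fit that uses it, and in a bulk sample fewer cells of a type and less RNA per cell cannot be told apart.

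**Figure D3:**
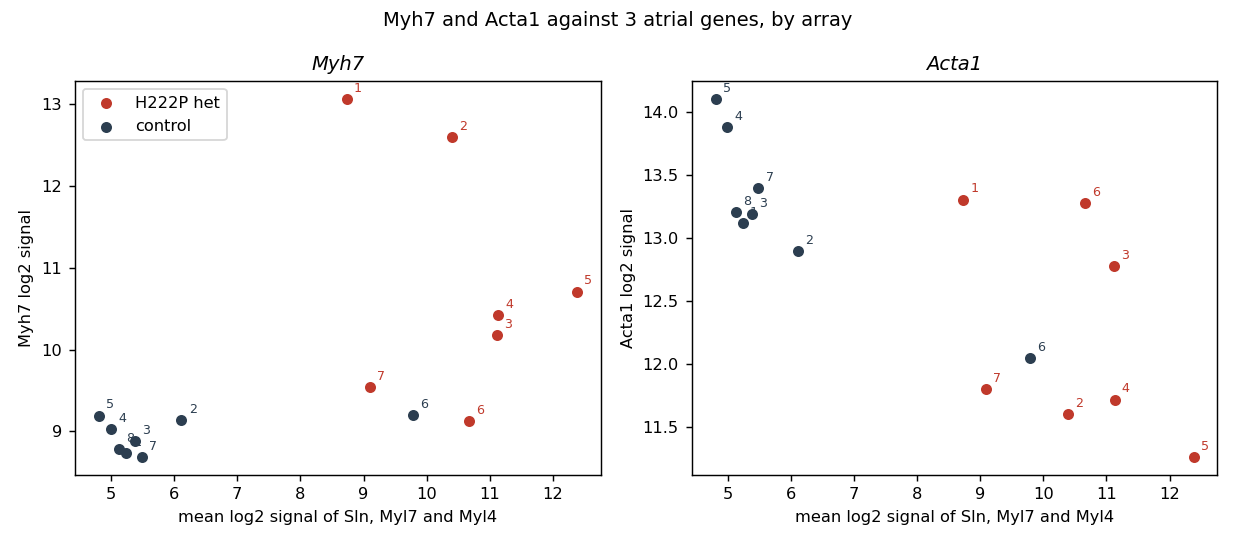
Log2 signal of Myh7 (left) and Acta1 (right) against the mean log2 signal of the atrial genes Sln, Myl7 and Myl4, with 1 numbered point per array. Control array 6 has an atrial mean of 9.79 with the other controls at 6.12 or below, and its Acta1 signal is the lowest of the controls, while its Myh7 signal stays with the controls.

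Skeletal muscle is the other main source of Acta1, Tnni1 and Myh7. Of 15 fast-fibre markers 0 passed in either direction, with summed signals of 929.5 to 1543.3 units in heterozygous and 946 to 1772.1 units in control hearts. The fast heavy chains Myh1 and Myh4 reached at most 59.1 and 74.7 units in heterozygous and 60.9 and 118.1 units in control hearts. No list of slow-fibre markers was examined, so slow fibres, to which Tnni1 and Myh7 belong, are not covered. The smooth muscle list had 0 of 6 passing, with sums of 6390.9 to 12691.9 units in heterozygous and 5477.4 to 7044.9 units in control hearts. The fibroblast list had 0 of 8 passing, and its sums did not overlap, at 18933.9 to 35919.9 units in heterozygous and 14026.6 to 18381.6 units in control hearts. Its brightest gene, Dcn, weighs most in that sum, at 9164.6 to 17666.6 units in heterozygous and 4553.9 to 8131.2 units in control hearts. The log2 difference was 0.88 for Dcn and ran from 0.08 (Col3a1) to 0.65 (Pdgfra) in the other genes. Of 6 blood markers tested, the platelet gene Ppbp and the heme synthesis gene Alas2 fell. The blood list's sums did not overlap either, at 1747.5 to 3374 units in heterozygous and 3440.7 to 4329.8 units in control hearts. How often sums of other genes do not overlap was not computed. Ventricular markers had 0 of 6 passing, with sums of 42461.4 to 100823.7 units in heterozygous and 56594.7 to 162476 units in control hearts. The part of these cell types in the member differences was not tested.

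Other genes that encode alternative sarcomere proteins were described from a list of 26, all tested. Of these 2 rose, 0 fell and 24 did not pass limma's test, beside 0.289% of all genes. The risers were the atrial light chain Myl7, at 1838.1 units in heterozygous and 71.1 units in control hearts (25.8-fold, limma's adjusted p = 0.0255), and Myl4, a light chain of the atria and of embryonic muscle, at 1949.3 units in heterozygous and 274.4 units in control hearts (7.10-fold, limma's adjusted p = 0.0298, in 1 of its 2 probe sets). Their calls were lost together when any of control arrays 1, 3, 4 or 7 or heterozygous array 4 was left out. The count was 1 without control array 2 or 5 or heterozygous array 6, and 3 without heterozygous array 2. The smooth muscle actin Acta2, also a fetal heart form, had 6441.6 units in heterozygous and 3779.3 units in control hearts (ratio 1.70, limma's adjusted p = 0.0755), in 1 of 3 probe sets whose differences ran from -1.55 to 0.95. At an unadjusted p under 0.05, 5 were higher and 2 lower, which is 26.9% of 26 beside 15.2% of all genes. The list median was 0.03 and that of all genes -0.08 (log2 difference).

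**Figure D4:**
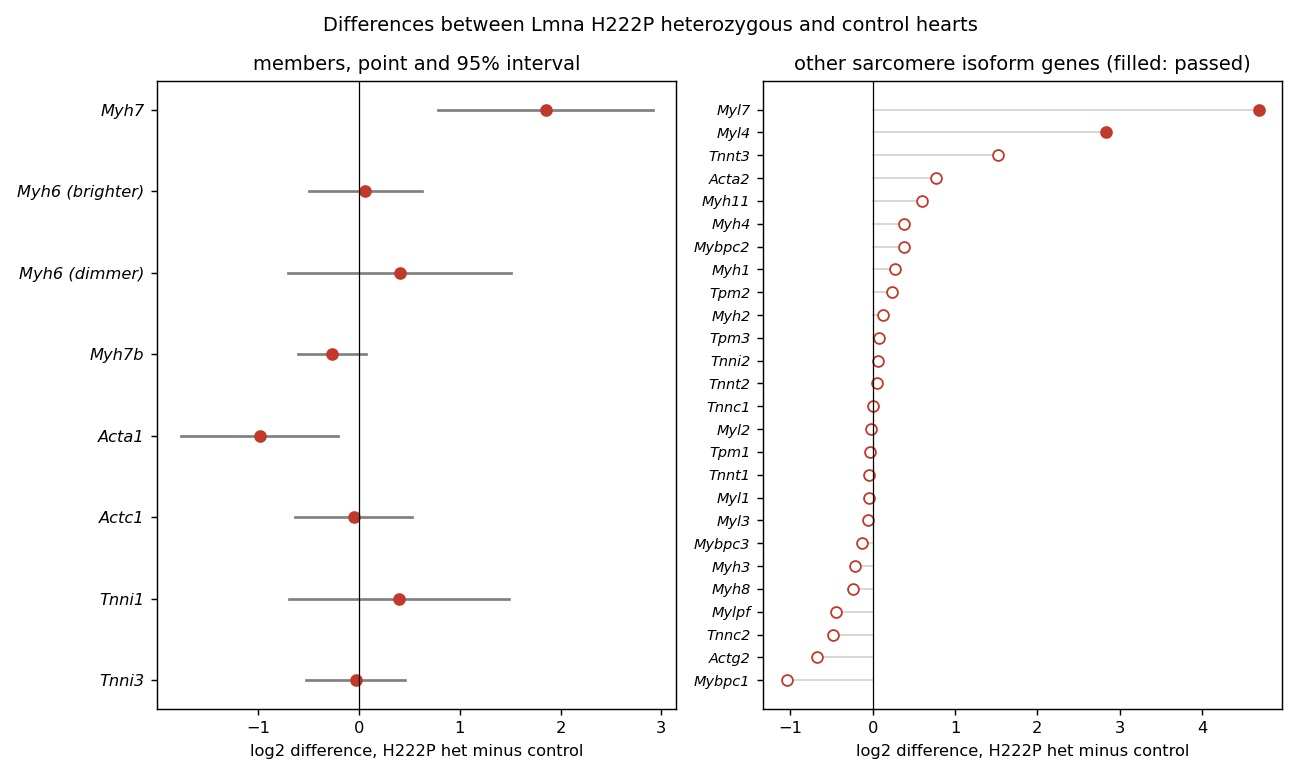
Log2 differences, heterozygous minus control, for the members with 95% intervals from limma (left) and for 26 other sarcomere isoform genes as points, filled where the adjusted p was under 0.05 (right). Among the members the intervals of Myh7 and Acta1 leave out 0 on opposite sides without passing after adjustment, and on the right only Myl7 and Myl4 passed.

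Among 30 genes that are known to control these isoforms, such as thyroid hormone receptors, which favour Myh6 over Myh7, and the MEF2, GATA4, SRF and TEAD factors, 29 were tested and 0 passed limma's test by their brightest probe set. Of the dimmer ones, 1 of the 6 probe sets of the calcium-signalled factor gene Nfatc2, named after its values were seen, did pass, and the log2 differences of the 6 ran from -1.18 to 0.08. At an unadjusted p under 0.05, 2 were higher and 2 lower, which is 13.8% of 29 beside 15.2% of all genes, and the list median was 0.05. The smallest p was that of Thrb, the beta thyroid hormone receptor, at 71.3 units in heterozygous and 126.3 units in control hearts (ratio 0.565, limma's adjusted p = 0.213). Purb, a repressor of the alpha heavy chain gene, had 777.4 units in heterozygous and 1101.1 units in control hearts (ratio 0.706, limma's adjusted p = 0.313), and the histone deacetylase gene Hdac2 had 829.4 units in heterozygous and 663.6 units in control hearts (ratio 1.25, limma's adjusted p = 0.326).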

How the data were processed

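Whole-heart total RNA was prepared with RNeasy columns and measured, after biotin labelling, on 1-colour Affymetrix arrays, per the labels' protocols. The deposited intensities, 1 linear signal per probe set, are credited to GCRMA by the submitters' processing notes, with no version, but share a 2%-trimmed mean of 250.0 on every array, so the summarisation used is unsettled. Scan dates and detection calls were not used here. The number of arrays limits the precision.

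Signals were log2-transformed without pseudocount. Of 45101 probe sets, 34958 had 1 gene symbol, 932 several and 9211 none in the annotation given with the table. The 64 control probe sets were left out, and probe sets over a log2 signal of 4 on at least 7 of 15 arrays (38870 probe sets, 16627 genes) entered limma 3.58.1 (R 4.3.3) (group as the only term, Benjamini-Hochberg over all, threshold 0.05). Fold changes are ratios of geometric means. A gene in a list or ratio was represented by its brightest tested probe set. Ratios were compared by exact permutation over arrays in Python 3.11.15 with numpy 2.4.6, and figures drawn with matplotlib 3.10.9. The fit was tested on simulated data.

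The members and lists were chosen with earlier results of these data known. All members are named, and of each list the genes that passed and the 3 with the smallest p. The 3 genes most like each member had a mean log2 signal of at least 6, and list genes without a tested single-gene probe set were not analysed here. Alternatives were other filters, scalings, array weights, variance priors, tests and denominators, a floor, covariates, the replicate number as a block, and leaving out arrays.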

Additional observations from a re-analysis of the deposited data

Results flagged for a closer look

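Control array 5 was far from the other 7 controls in 3 groups of values. It was high in the brighter Myh6 probe set, at a log2 signal of 15.89, and in Actc1, at 15.98. It was low in the ratio of Myh7 over Myh6, at -6.70. Tnni3 was also highest there, at 48692.5 units, without passing the same limit. In all, 28 groups of values from both genotypes were examined, where chance flags about 1 in 20. The 3 flags were not separate, since Myh6 and Actc1 correlated at Pearson's r = 0.992 over the controls. The flagged ratio also contains the same Myh6 values. Without control array 5 the ratio of Myh7 over Myh6 differed by 1.67 between the groups (exact permutation p = 0.00117).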

How the results depend on the processing

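No member passed limma's adjusted test under any of the 28 alternatives, in which the adjusted p of Myh7 ran from 0.0869 to 0.549 and its log2 difference from 1.04 to 2.25. Deviations of mice of the same number correlated at -0.06 to 0.06 over 7 numbers, which cannot show whether the mice were paired by litter or handling. The replicate number as a block took the count of other sarcomere isoform genes that passed to 0 and gave Myh7 over Myh6 a difference of 1.82 (exact sign-flip p = 0.0312, 0.125 over the 4 ratios, where the smallest possible is 0.0156). That difference was also no longer past the threshold with the mean of the Myh6 probe sets (1.61), with the dimmer Myh6 probe set (1.44) and when adjusted over all tested probe sets (1.78, adjusted exact p = 0.326). Leaving out each array in turn gave 1.41 to 2.04 for Myh7 over Myh6, -1.27 to -0.72 for Acta1 over Actc1, 0.19 to 0.78 for Tnni1 over Tnni3, -0.55 to -0.20 for Myh7b over Myh6, and 0 to 3 for the count of other isoform genes. Single members over the same left-out arrays ran from -0.029 to 0.24 in the brighter and from 0.14 to 0.67 in the dimmer Myh6 probe set, from 0.14 to 0.79 in Tnni1 and from -0.14 to 0.12 in Actc1. The sign of near-zero differences turned in the brighter Myh6 probe set without control array 7 (-0.015), without heterozygous array 2 (-0.029), without heterozygous arrays 1 and 2 (-0.049), with the beta-actin covariate (-0.072) and without the 4 arrays of steep beta-actin ratio (-0.17). It turned in Actc1 and Tnni3 with median centring (0.15 and 0.17), the difference of medians of the rank sum test (0.28 and 0.10), without control array 5 (0.12 and 0.096), without heterozygous array 4 (0.013 and 0.013), without heterozygous array 6 (0.12 and 0.11) and with the atrial covariate (0.13 and 0.11), and in Tnni3 without control array 4 (0.0017). Tnni1 turned to -0.18 without the steep arrays and Acta1 to 0.51 with the atrial covariate. The dimmer Myh6 probe set had 0.87 with the beta-actin covariate, 1.22 without the steep arrays and 1.74 with the atrial covariate. The cause of these changes was not tested. The covariates, the fit without steep arrays, the other denominators and the adjustment over all probe sets were chosen after seeing the data. Median centring moved the median of all probe sets from -0.11 to 0.10, and gave Myh7 2.06 and Acta1 -0.78. Quantile normalization gave ratio differences of 1.69 for Myh7 over Myh6 and -0.97 for Acta1 over Actc1. It gave 0.67 for Tnni1 over Tnni3 and -0.33 for Myh7b over Myh6. In that order their exact permutation p, adjusted over the 4 ratios, were 0.00249, 0.0675, 0.189 and 0.0675. At the log2 filter of 6, which left Tnni1 untested, 3 other isoform genes passed in place of 2. Weak signals such as Tnni1 limit what these arrays can show.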

Other observations

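The annotation gives 2 further probe sets to both Myh6 and Myh7, which were assigned to neither. The brighter of them ranged from 15923.8 to 38228.9 units in heterozygous and from 17227.1 to 48358.8 units in control hearts, a log2 difference of 0.15, and had heterozygous array 6 lowest and control array 5 highest, as the brighter Myh6 probe set did. The dimmer ranged from 196.8 to 4817.5 units in heterozygous and from 512.1 to 4434.0 units in control hearts, a log2 difference of 0.17. On the 4 arrays with a beta-actin log2 ratio over 1 it measured 196.8 to 882.0 units, and on the other 11 from 642.7 to 4817.5 units, a split like that of the dimmer Myh6 probe set.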
